A study of Mus musculus with 6 samples.

Results

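Aquaporins are channel proteins that let water, and in some members glycerol, cross cell membranes. The 8 aquaporins described here are the genes Aqp1, Aqp3, Aqp4, Aqp5, Aqp7, Aqp8, Aqp9 and Aqp11, read by every probe set to which the array's annotation gives one of these symbols. This gave 17 probe sets of the 45037 on the array that are not controls, and 8 of the 18193 genes that have a probe set. Whole lung RNA of adult BALB/c mice was measured on 6 Affymetrix mouse 430 2.0 arrays, 2 arrays for each of 3 genotypes. Every mouse, whatever its genotype, had received 2 to 3 micrograms of interleukin-13 (IL-13, a cytokine of allergic airway inflammation) into the trachea once a day for 7 days. The lungs were collected 24 hours later, so no group was untreated. The first group had both copies of the IL-4 receptor gene (wild type, WT, IL4R +/+). The second lacked the receptor (IL4R KO, IL4R -/-). The third had the knockout and also a transgene (+/-) that restores the receptor under the SMP8 promoter. Per the design text that promoter is active only in smooth muscle, and the group is named IL4R KO + SMP8-IL4R, or transgenic here. Each array held RNA pooled from 4 mice, so differences between single animals cannot be seen and p-values measure the spread between pools.

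IL-13 signals through a receptor that contains the IL-4 receptor alpha chain, and in airway epithelium it is known for turning on mucus production. Aquaporins form water pores that follow osmotic gradients set by ion transport. In lung, Aqp1 is known from the endothelium of small vessels, Aqp5 from alveolar type 1 cells and glands, Aqp4 from the basolateral side of airway epithelium, and Aqp3 from basal cells of the large airways. Aqp3, Aqp7 and Aqp9 also pass glycerol and are called aquaglyceroporins, with Aqp7 best known from fat and Aqp9 from liver. Aqp8 is best known from epithelia of the digestive tract and liver, and Aqp11 is a distant member found mostly inside cells.

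Promoter sequence was set beside the members other than Aqp4 whose lung RNA passed a test in at least 1 comparison below, to show what the DNA ahead of them looks like. The stretches are the 250 bases before the annotated start, from RefSeq on GRCm38.p6, written 5′ to 3′ on the gene's own strand, with the letters TATAAA in capitals. Aqp3 lies at chr4:41098184-41098433 on the minus strand, Aqp5 at chr15:99590778-99591027 on the plus strand and Aqp11 at chr7:97738248-97738497 on the minus strand.
Aqp3: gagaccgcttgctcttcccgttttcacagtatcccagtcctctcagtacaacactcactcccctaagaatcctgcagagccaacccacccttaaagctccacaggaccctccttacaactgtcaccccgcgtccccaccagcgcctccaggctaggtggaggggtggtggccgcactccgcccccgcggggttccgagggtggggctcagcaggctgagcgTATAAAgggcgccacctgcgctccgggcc
Aqp5: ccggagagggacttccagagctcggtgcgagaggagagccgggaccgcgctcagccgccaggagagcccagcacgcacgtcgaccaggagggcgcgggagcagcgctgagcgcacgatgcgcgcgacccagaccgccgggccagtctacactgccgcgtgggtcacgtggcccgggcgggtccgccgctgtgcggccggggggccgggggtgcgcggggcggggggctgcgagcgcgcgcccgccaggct
Aqp11: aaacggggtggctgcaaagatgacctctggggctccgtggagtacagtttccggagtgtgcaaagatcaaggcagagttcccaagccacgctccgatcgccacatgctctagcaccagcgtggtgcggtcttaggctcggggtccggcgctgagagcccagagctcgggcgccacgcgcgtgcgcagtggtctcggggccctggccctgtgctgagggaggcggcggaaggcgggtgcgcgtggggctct
The Aqp3 stretch holds TATAAA, the letters of a TATA box, starting 29 bases before the start, and the other members' windows do not hold it on either strand. Over windows of 300 bases that also take in 50 bases after the start, TATAAA on either strand was present in 13.6% of 32851 promoters. Of the 8 aquaporins, 7 matched an entry by symbol, with 9 entries in all. None of the 9 held TTCNNNNGAA or TTCNNNGAA, spacings of the palindrome known for STAT factors, which were present in 6.95% and 8.3% of all promoters. These are matches of letters alone. G and C made up 64% of the Aqp3 window, 79.7% of the Aqp5 window and 68% of the Aqp11 window.

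All values are log2 signals, and differences are differences of log2 group means, given with the standard error (SE) of the limma fit. A gene was read by its brightest probe set, and was tested where this exceeded 7.10, the median of all array values, in 2 or more of the 6 arrays. A gene passed at an adjusted p (limma, Benjamini-Hochberg over 11860 tested genes) under 0.05. Of the aquaporins 5 were tested (Aqp1, Aqp3, Aqp4, Aqp5 and Aqp11) and 3 were not (Aqp7, Aqp8 and Aqp9). Every probe set, those of the untested members included, was also fitted in the same model over all 45037 probe sets, called the probe set fit here. A member is called dim when the mean of its brightest probe set was below 7.10, which held for Aqp3, Aqp7, Aqp8 and Aqp9. Probe sets are numbered from the brightest, and levels of different probe sets are not compared because probes bind with different strength.

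Several facts of the whole series touch the aquaporins. The brightest probe set of the targeted gene, Il4ra, read 9.35 and 9.55 in IL4R KO pools 1 and 2, 9.64 and 9.81 in WT and 9.98 and 9.84 with the transgene. Where it lies relative to the deleted part is not known here, so it does not check the labels. RNA of liver was present in some pools: albumin (Alb) was at 12.3 in the first IL4R KO pool and at 11.8 in the second WT pool, against 5.68 to 5.93 in the other 4. Fat transcripts followed genotype, with adiponectin (Adipoq) at 10.1 and 10.3 in IL4R KO, 8.79 and 8.75 with the transgene and 8.08 and 8.39 in WT. The Y-linked gene Eif2s3y was at 4.27 in IL4R KO pool 2 and at 8.49 or more in the other pools. Xist, an RNA made by the inactive X chromosome of females, was at 7.93 in IL4R KO pool 1 and at 10.1 or more elsewhere. Their part in the results was not tested. Markers of goblet cells, the mucus cells of the airway, averaged 10.77 and 10.79 in WT and 7.12 to 7.49 in the other 4 pools, while the mean over alveolar type 1 markers stayed between 12.34 and 12.47 in all 6.

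**Figure D1:**
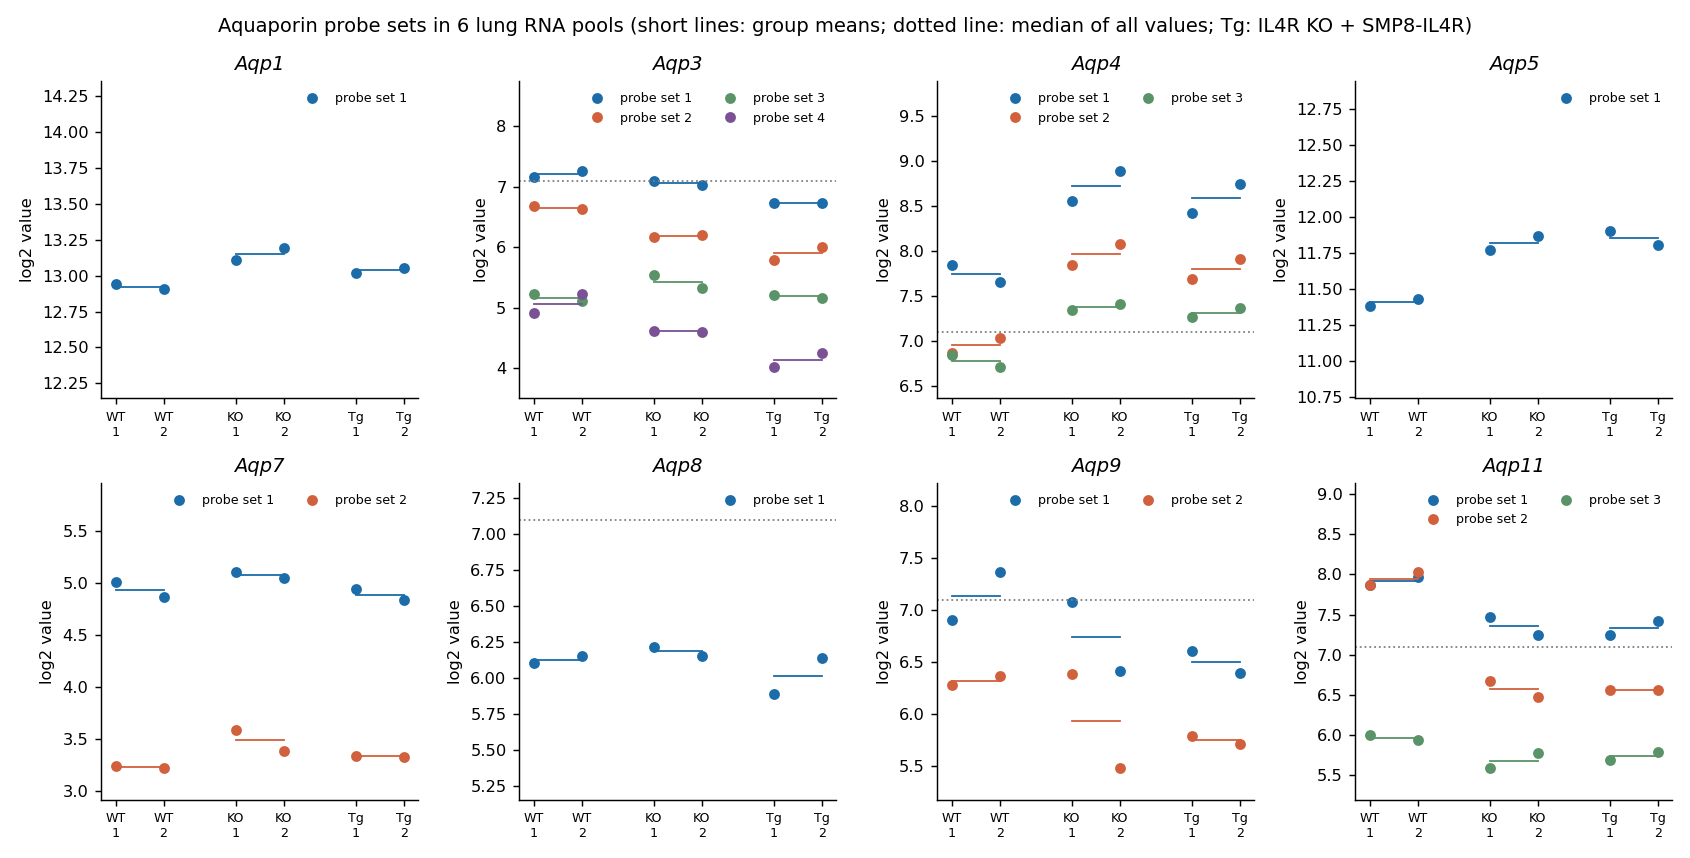
Log2 value (vertical axis) of each aquaporin probe set in the 6 RNA pools (horizontal axis, by genotype and pool number), one panel per gene, with group means as short lines and the median of all array values, 7.10, as a dotted line where it falls within the panel. Both WT pools lie below the other 4 pools in all 3 Aqp4 probe sets and in Aqp5, and above them in all 3 Aqp11 probe sets.

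WT lungs had less Aqp4 and Aqp5 RNA and more Aqp11 RNA than IL4R KO lungs after the same IL-13 exposure. Aqp4 was 1.97-fold lower, Aqp5 1.33-fold lower and Aqp11 1.47-fold higher in WT by their brightest probe sets. With these 3, 1 of 5 tested aquaporins was higher and 2 were lower, where 2.77% of all tested genes were higher and 1.92% lower. At an unadjusted p under 0.05 the count was 4 of 5, Aqp1 being the other one, where 22.5% of all tested genes reached it. The median difference over the 5 tested aquaporins was -0.23, against -0.02 over all tested genes. In bulk lung RNA, fewer cells of a type and less RNA per cell cannot be told apart.

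Aqp4, a water-selective channel, was read by 3 probe sets that moved alike. Its brightest probe set gave 7.84 and 7.65 in WT pools 1 and 2, 8.55 and 8.89 in IL4R KO, and 8.42 and 8.74 with the transgene. Both WT pools were below all 4 others, and the knockout and transgenic pools overlapped. The difference of WT from IL4R KO was -0.98 (SE 0.157, 95% interval -1.36 to -0.59, adjusted p = 0.0291), the 59th largest fall of a tested gene. Leaving out WT pool 1 gave -1.07 with an adjusted p of 0.155, and leaving out WT pool 2 gave -0.88 with 0.204, so the call needs both WT pools.

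The other Aqp4 probe sets gave the same order of groups. Set 2 read 6.87 and 7.03 in the WT pools, 7.84 and 8.08 in the IL4R KO pools and 7.69 and 7.91 in the transgenic pools, a difference of WT from IL4R KO of -1.01 (SE 0.120, adjusted p = 0.0145 in the probe set fit). Set 3 read 6.84 and 6.71 in the WT pools, 7.34 and 7.41 in the IL4R KO pools and 7.26 and 7.36 in the transgenic pools, with a difference of -0.60 (SE 0.0852, adjusted p = 0.0267 in the same fit). The size was thus close to 2-fold in sets 1 and 2 and 1.52-fold in set 3. Set 1 also passed in the probe set fit, at 0.0371. Without the 2 pools rich in liver RNA the Aqp4 difference was -1.05, as large as with them. That sets 1 WT pool against 1 IL4R KO pool, so it gives a size but no spread within either genotype.

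Aqp5, the water channel of the apical membrane of alveolar type 1 cells and of gland cells, lay well above the upper quartile of all values, 8.98. It read 11.38 and 11.43 in the WT pools, 11.77 and 11.87 in the IL4R KO pools and 11.90 and 11.80 in the transgenic pools. The WT pools again lay below all others, and the gap between pools of a genotype was small beside the difference. WT differed from IL4R KO by -0.41 (SE 0.0706, 95% interval -0.59 to -0.24, adjusted p = 0.0347). This call was close to the threshold. With only the 4 arrays compared it was lost (adjusted p = 0.0782), and leaving out either transgenic pool gives that same fit. The probe set fit gave an adjusted p of 0.0725. The call was also lost without either WT pool (-0.39 and -0.44) and without the 2 liver-rich pools (-0.49).

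Aqp11, which is known from the endoplasmic reticulum, was the only tested aquaporin that passed as higher in WT. Set 1, whose probes may also bind related transcripts, read 7.86 and 7.97 in the WT pools, 7.47 and 7.25 in the IL4R KO pools and 7.24 and 7.42 in the transgenic pools. Both WT pools were above the other 4, by a difference from IL4R KO of 0.56 (SE 0.105, 95% interval 0.30 to 0.82, adjusted p = 0.0459). That call was lost with only the 4 arrays compared (adjusted p = 0.0819), and leaving out either transgenic pool gives that same fit. The call was also lost without WT pool 1 (0.61), WT pool 2 (0.50), IL4R KO pool 2 (0.44) and the 2 liver-rich pools (0.62).

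Set 2 of Aqp11 showed the largest difference of any aquaporin probe set between WT and IL4R KO. It read 7.86 and 8.03 in the WT pools, 6.67 and 6.47 in the IL4R KO pools and 6.56 and 6.56 in the transgenic pools. The 4 pools without the receptor outside smooth muscle were all below the median of all values, and both WT pools were above it. The difference was 1.37 (SE 0.0987, 2.59-fold, adjusted p = 0.00188 in the probe set fit). Set 3 read 6.00 and 5.94 in the WT pools, 5.59 and 5.78 in the IL4R KO pools and 5.69 and 5.79 in the transgenic pools, and its difference of 0.29 (SE 0.0925, adjusted p = 0.209) missed the threshold. Read by the median of its probe sets, Aqp11 differed by 1.35 (adjusted p = 0.00116), so the size of the change depends on the probe set.

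Aqp1, the water channel of vessel endothelium and red cells, was bright and nearly level. It read 12.94 and 12.91 in the WT pools, 13.11 and 13.19 in the IL4R KO pools and 13.02 and 13.05 in the transgenic pools. The 3 groups did not overlap, with IL4R KO highest and WT lowest, but the whole range was 0.28. WT differed from IL4R KO by -0.23 (SE 0.0616, 95% interval -0.38 to -0.08, adjusted p = 0.106), which did not pass, although leaving out IL4R KO pool 1 gave -0.27 with an adjusted p of 0.0488. Of 10 endothelial markers, Vwf rose in WT by 0.70 and 0 fell by the limma fit, with a median difference of -0.07. Vwf was also the only 1 of them at an unadjusted p under 0.05. Of 5 red cell markers with a probe set 2 were tested and 0 passed by limma (1 at an unadjusted p under 0.05), Alas2 at -0.60 (adjusted p = 0.0528) and Slc4a1 at -0.47 (0.375), named with their values known, and the part of red cells and vessels in the Aqp1 values was not tested.

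Aqp3, a channel for water and glycerol, was dim, and its probe sets did not all give one order. Set 1 read 7.17 and 7.27 in the WT pools, 7.10 and 7.02 in the IL4R KO pools and 6.73 and 6.73 in the transgenic pools, with 3 of the 6 arrays above the median of all values. Its WT pools were highest and its transgenic pools lowest, while the difference of WT from IL4R KO was 0.15 (SE 0.067, adjusted p = 0.25). Set 2 read 6.67 and 6.63, 6.17 and 6.21, and 5.80 and 6.00 in the same order of groups, and set 4 read 4.91 and 5.23, 4.61 and 4.60, and 4.03 and 4.25. The differences of WT from IL4R KO were 0.47 (SE 0.0901, adjusted p = 0.0702) in set 2 and 0.46 (SE 0.126, 0.159) in set 4. Set 3 departed from this order, with 5.22 and 5.11 in the WT pools, 5.54 and 5.33 in the IL4R KO pools and 5.21 and 5.16 in the transgenic pools. Sets 3 and 4 were below the lower quartile of all values, 5.30, where signals are compressed toward the floor.

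The remaining 3 members were dim in every group and none passed. Aqp7, the glycerol channel of fat cells, read 5.01 and 4.86 in the WT pools, 5.10 and 5.05 in the IL4R KO pools and 4.94 and 4.84 in the transgenic pools in set 1, and 3.22 to 3.59 over the 6 pools in set 2. Both sets were near the floor, and the set 1 difference of WT from IL4R KO was -0.14 (SE 0.0869, adjusted p = 0.481 in the probe set fit). Aqp8, a channel of digestive epithelium and liver, read 6.10 and 6.15 in the WT pools, 6.22 and 6.15 in the IL4R KO pools and 5.89 and 6.14 in the transgenic pools. Its pools of the 3 groups lay within 0.33 of each other, with a difference of -0.06 (SE 0.1, adjusted p = 0.821). Aqp9, the glycerol and urea channel of hepatocytes that neutrophils also express, read 6.91 and 7.37 in the WT pools, 7.08 and 6.41 in the IL4R KO pools and 6.61 and 6.40 in the transgenic pools in set 1. The IL4R KO pools were 0.67 apart, so a difference of 0.39 (SE 0.238, adjusted p = 0.472) was not larger than their spread.

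Counted over all 17 probe sets, the groups WT and IL4R KO did not overlap in 15, where 45.8% of all probe sets showed this. WT was higher in 6 of these (23.7% of all probe sets) and lower in 9 (22.1%). The 2 that overlapped were those of Aqp9. In the probe set fit 4 of the 17 passed, namely the 3 of Aqp4 (lower) and set 2 of Aqp11 (higher), where 0.999% of all probe sets were higher and 0.577% lower. At an unadjusted p under 0.05 the count was 12 of 17, where 16% of all probe sets reached it.

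**Figure D2:**
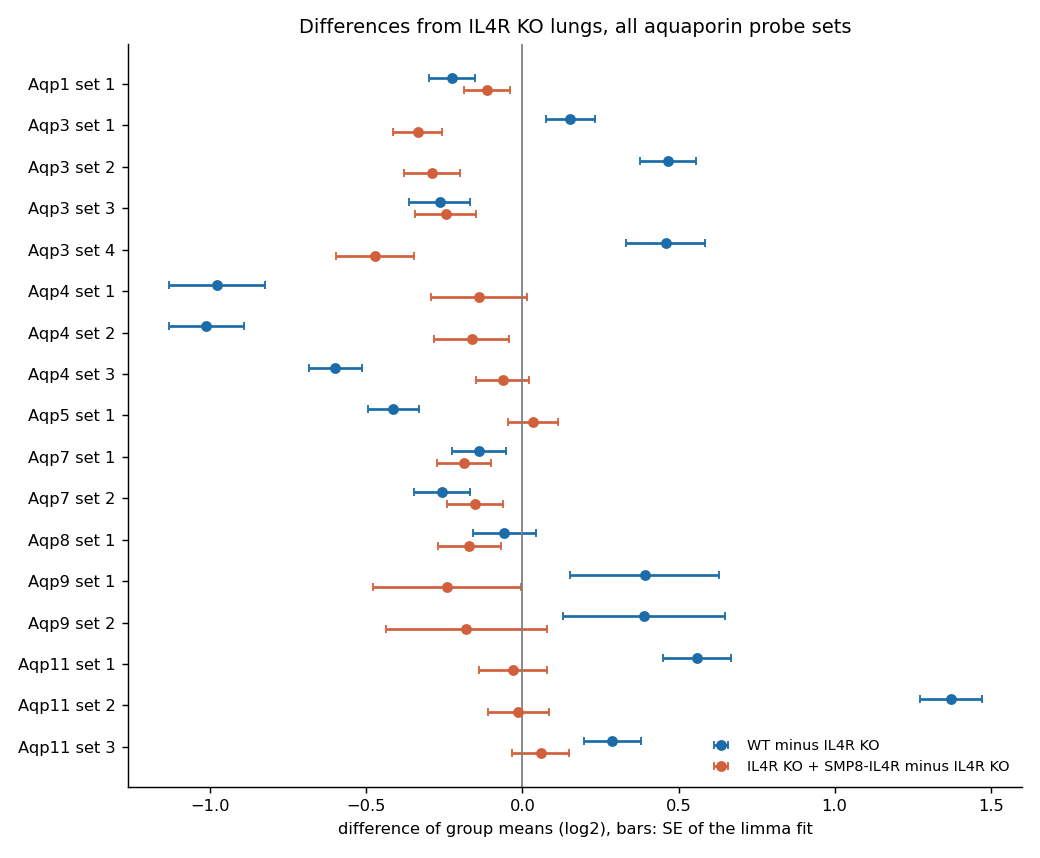
Difference of log2 group means from IL4R KO (horizontal axis) for each of the 17 aquaporin probe sets (vertical axis), with bars for the SE of the probe set fit, for WT and for IL4R KO + SMP8-IL4R. The WT points of Aqp4 reach -1.01 and those of Aqp11 reach 1.37, while the transgenic points of both genes lie between -0.16 and 0.06.

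The comparison of knockout lungs with and without the transgene asks what the receptor in smooth muscle alone did to these genes. No aquaporin passed: 0 of 5 tested members by limma, where 0.101% of all tested genes passed, 12 genes in all. At an unadjusted p under 0.05 there was 1 (Aqp3), where 12.4% of all tested genes reached it. For Aqp4 the transgenic lungs differed from IL4R KO by -0.14 (SE 0.157, 95% interval -0.53 to 0.25, adjusted p = 0.736). For Aqp5 the difference was 0.03 (SE 0.0706, interval -0.14 to 0.21, adjusted p = 0.865). For Aqp11 it was -0.03 (SE 0.105, interval -0.29 to 0.23, adjusted p = 0.922). The intervals of Aqp4, Aqp5 and Aqp11 leave out changes of the size seen between WT and IL4R KO, but not smaller ones.

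Aqp3 was the member with the largest difference between transgenic and IL4R KO lungs among those tested. It read lower with the transgene in each of its 4 probe sets, with no overlap of pools, with a difference of -0.34 in set 1 (SE 0.067, 95% interval -0.50 to -0.17, adjusted p = 0.219) that did not pass. The other sets gave -0.29, -0.25 and -0.47 with adjusted p-values of 0.358, 0.419 and 0.332 in the probe set fit. Aqp1 differed by -0.11 (SE 0.0616, adjusted p = 0.495). In the probe set fit Aqp7 differed by -0.19, Aqp8 by -0.17 and Aqp9 by -0.24, with adjusted p-values of 0.469, 0.549 and 0.718. Over the 17 probe sets the 2 groups did not overlap in 8, all lower with the transgene, where 42.1% of all probe sets did not overlap and 22.1% were lower. By limma 0 of the 17 passed, where 0.0155% of all probe sets passed, and 4 had an unadjusted p under 0.05, where 11.3% of all had.

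Transgenic and WT lungs were then compared directly, which tests whether the receptor in smooth muscle and the receptor in all cells left the aquaporins at different levels. Since both differences above share the same IL4R KO pools, this direct contrast is the test of their difference. Aqp5 was 1.36-fold higher and Aqp3 1.40-fold lower in transgenic than in WT lungs, and both passed. That was 1 of 5 tested members higher and 1 lower, where 0.691% of all tested genes were higher and 2.15% lower, and 4 had an unadjusted p under 0.05, where 18% of all tested genes had. Aqp3 met the filter only through both WT pools and IL4R KO pool 1 (7.10), so its place in the count depends on the group where it was high. Fitted by limma over all genes without a filter, Aqp3 had an adjusted p of 0.0329. Aqp5 differed by 0.45 (SE 0.0706, 95% interval 0.27 to 0.62, adjusted p = 0.0353) and Aqp3 by -0.49 (SE 0.067, interval -0.65 to -0.32, adjusted p = 0.0222). Both calls were lost when any 1 WT or transgenic pool was left out, which gave adjusted p-values of 0.152 to 0.215 for Aqp3 and 0.145 to 0.295 for Aqp5. Without the 2 liver-rich pools Aqp3 differed by -0.44 (adjusted p = 0.0562) and Aqp5 by 0.47 (0.0647).

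Aqp4 and Aqp11 fell just short in that contrast by their brightest probe sets. Aqp4 differed by 0.84 (SE 0.157, 95% interval 0.45 to 1.22, adjusted p = 0.0579) and Aqp11 by -0.59 (SE 0.105, interval -0.85 to -0.33, adjusted p = 0.0522). Both passed in the fit of only the 4 WT and transgenic arrays, at adjusted p-values of 0.0251 for Aqp4 and 0.0196 for Aqp11. Leaving out either IL4R KO pool gives that same fit, as a lone pool adds nothing to the spread. Their further probe sets in the probe set fit gave 0.85 (adjusted p = 0.0333) and 0.54 (0.0477) for sets 2 and 3 of Aqp4, and -1.39 (0.00194) and -0.23 (0.311) for sets 2 and 3 of Aqp11. Sets 1, 2 and 4 of Aqp3 gave -0.49 (0.0482), -0.76 (0.0169) and -0.93 (0.0277), and set 3 gave 0.02 (0.947). Aqp1 differed by 0.11 (SE 0.0616, adjusted p = 0.397). In all, 6 of 17 probe sets passed, 2 higher and 4 lower, where 1.04% of all probe sets passed, 0.273% higher and 0.77% lower. An unadjusted p under 0.05 was reached by 11 of the 17 and by 15.3% of all probe sets. The pools did not overlap in 14 of 17, where 54.7% of all did not, with 6 higher (27.4% of all) and 8 lower (27.2%).

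Aqp9 was the aquaporin marked for following liver transcripts. Its highest pools were the same 2 that were richest in liver RNA, one IL4R KO and one WT, in both probe sets. Set 2 was at 6.38 in that IL4R KO pool (pool 1) and at 6.37 in that WT pool (pool 2), but WT pool 1, without liver RNA, was also at 6.28, while IL4R KO pool 2 was at 5.48 and the transgenic pools at 5.79 and 5.71. The mean over 13 hepatocyte genes was 9.84 and 9.27 in the 2 liver-rich pools and 6.20 to 6.42 in the other 4, and 4.7% of all probe sets had the same 2 pools on top. Without those pools Aqp9 set 1 still read higher in the remaining WT pool, by 0.49 over the remaining IL4R KO pool (adjusted p = 0.153), which did not pass. The mean over neutrophil markers was highest in transgenic pool 1, at 10.72 with IL4R KO pool 1, one of the highest for Aqp9, next at 9.81 and the other 4 at 8.61 to 9.04. The part of neutrophils in the Aqp9 values was not tested.

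Aqp7, Aqp8, Aqp1 and set 3 of Aqp3 followed the fat transcripts in the sense that both IL4R KO pools were their highest. For Aqp8 this rests on a near tie of IL4R KO pool 2 with WT pool 2, both at 6.15. WT pool 2 and IL4R KO pool 1, the highest for Aqp8 at 6.22, are the liver-rich pools. The mark of Aqp8 for fat and not for liver thus hangs on that tie. Its transgenic mean, 6.01, lay below its WT mean, 6.13, the opposite order to the fat markers. Set 1 of Aqp7 shared that opposite order (4.89 against 4.94). Set 2 of Aqp7 (3.34 against 3.23) and Aqp1 (13.04 against 12.92) had the order of the fat markers, and set 3 of Aqp3 was nearly level (5.19 against 5.17). The mean over 9 adipocyte genes was 8.67 and 8.73 in IL4R KO, 7.92 and 8.03 with the transgene and 7.54 and 7.71 in WT. Of all probe sets 10.2% had the IL4R KO pools on top, and 5 of the 17 aquaporin probe sets did, with ranges over the 6 pools of only 0.27 to 0.43. Aqp7, whose known site is the fat cell, stayed near the floor also in the IL4R KO pools. Since the fat level is nearly tied to genotype, its part in these differences was not tested apart from genotype. With the adipocyte mean as a covariate the Aqp4 difference between WT and IL4R KO was -0.41 (adjusted p = 0.999), and 0 of all tested genes passed by limma in that fit (105 at an unadjusted p under 0.05).

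**Figure D3:**
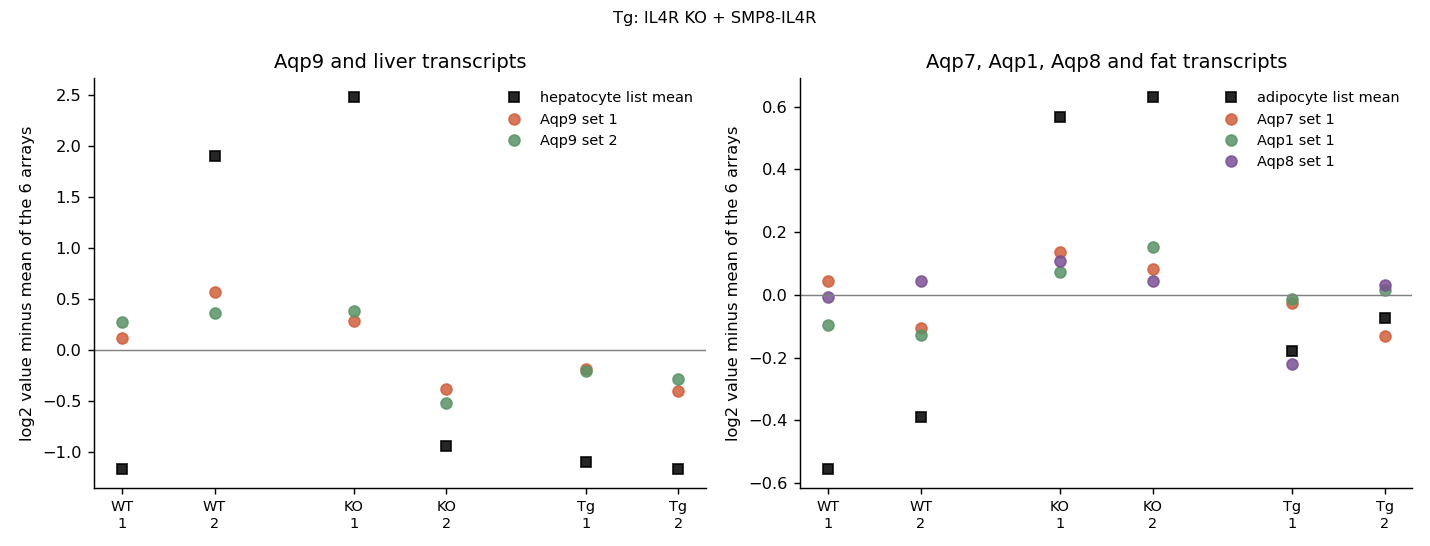
Log2 value minus its mean over the 6 pools (vertical axis) for Aqp9 with the hepatocyte list mean (left) and for the brightest probe sets of Aqp7, Aqp1 and Aqp8 with the adipocyte list mean (right), by pool (horizontal axis). Aqp9 is high in the 2 liver-rich pools and in WT pool 1, and the 3 genes on the right are highest in the IL4R KO pools, over a far smaller range than the fat markers.

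Genes with the pattern most like each member over the 6 pools were taken among tested genes that ranged over at least 0.5, as a description, for members that did so too. They are the closest of 1831 candidates (1832 for Aqp9) over only 6 pools, and a link to the member was not tested. For Aqp11 these were Foxa3 (Pearson r 0.992), Pbld2 (0.986) and Vdr (0.983). Foxa3, a transcription factor of goblet cells, read 7.56 and 7.80 in WT and 5.15 to 5.87 in the other pools. All 8 tested goblet markers rose in WT over IL4R KO, with a median difference of 2.50, and 0 of 8 passed by limma with the transgene (2 at an unadjusted p under 0.05). The part of goblet cells in the Aqp11 difference was not tested.

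For Aqp4 the closest genes were Parp4 (r 0.997), Rspo1 (0.993) and Axin2 (0.987), and for Aqp5 they were Esm1 (0.998), Fcgr1 (0.997) and Gdnf (0.996). Axin2, a target gene of Wnt signalling, and Rspo1, a secreted enhancer of that signalling, read 8.77 and 8.71 and 8.42 and 8.27 in WT, below 9.03 to 9.24 and 8.65 to 8.91 in the other pools. Esm1, a product of endothelial cells, read 6.52 and 6.80 in WT and 8.39 to 8.90 elsewhere. For Aqp3 the closest were Ces1f (0.987), Cited4 (0.976) and Coro2a (0.949). For Aqp9 they were Itih1 (0.99), Proz (0.977) and Serpind1 (0.971), which are genes of plasma proteins made in liver.

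Markers of the cells that are known to carry these channels were read beside them. By limma 0 of 9 alveolar type 1 markers passed between WT and IL4R KO (1 at an unadjusted p under 0.05), with a median difference of -0.10, next to the fall of Aqp5. Of 8 alveolar type 2 markers, Lpcat1 fell and the rest did not pass by limma (6 at an unadjusted p under 0.05, Lpcat1 included). Of these 6, Sftpa1 and Sftpd read higher in WT (0.22 and 0.28), and Sftpb, Abca3 and Napsa lower (-0.29, -0.28 and -0.33). Of 4 tested markers of submucosal glands, Ltf and Bpifa1 fell, with a list median of -0.39. Ltf is also among the neutrophil markers. Among basal cell markers 4 of 5 were below the median of all values, and the 1 tested, Krt5, differed by 0.27 without passing. By limma 0 of 8 ciliated cell markers passed (1 at an unadjusted p under 0.05). Of 3 tested skeletal muscle markers, a tissue known for Aqp4, 2 fell in WT, Ckm and Mb, which heart muscle also makes. The other probe sets of Ckm and Mb differed by only -0.05 and 0.08. The other 4 of that list were below the median of all values and untested, Myh1 and Tnnt3 reading 0.10 and 0.09 higher in WT. The list mean was 7.03 and 6.96 in IL4R KO, 6.88 and 6.86 with the transgene and 6.66 and 6.66 in WT. Of 8 tested cardiac muscle markers 6 fell in WT, with a median of -0.81, and the list mean was 11.57 and 11.29 in IL4R KO, 10.75 and 10.86 with the transgene and 10.72 and 10.61 in WT. Their part in the aquaporin differences was not tested.

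Water follows ions, and among genes of epithelial ion transport the sodium channel fell in WT lungs together with Aqp4 and Aqp5. Of 18 tested genes of that list 2 rose and 4 fell between IL4R KO and WT, with a median difference of 0.05. The epithelial sodium channel subunits all fell: Scnn1a by 0.43 (adjusted p = 0.0226), Scnn1b by 0.76 (0.00316) and Scnn1g by 0.44 (0.0331). Scnn1b read 9.81 and 9.77 in the WT pools, 10.51 and 10.59 in the IL4R KO pools and 10.27 and 10.32 in the transgenic pools. Nedd4l, a ubiquitin ligase that removes this channel from the membrane, fell by 0.47 (adjusted p = 0.0474).

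The 2 genes that rose did so by far more than any aquaporin changed. Slc26a4, the anion exchanger pendrin, read 13.23 and 13.26 in WT and 6.95 to 7.99 in the other pools, a difference of 5.77 (SE 0.311, adjusted p = 0.000948). Clca1, a secreted protein of goblet cells that acts on calcium-activated chloride channels, read 14.32 and 14.29 in WT and 3.91 to 5.27 elsewhere, a measured difference of 9.38 (SE 0.336, adjusted p = 0.000192). The 4 low pools lie below the lower quartile, where signals are compressed, and WT is close to the array's highest value, so this difference may understate the change. The other Clca1 probe set gave a difference of 4.81, so the size depends on the probe set. The chloride channel genes Cftr (0.23, adjusted p = 0.163) and Ano1 (0.44, adjusted p = 0.161) did not pass. With the transgene 0 of 18 passed by limma (2 at an unadjusted p under 0.05), with a median difference of -0.04.

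**Figure D4:**
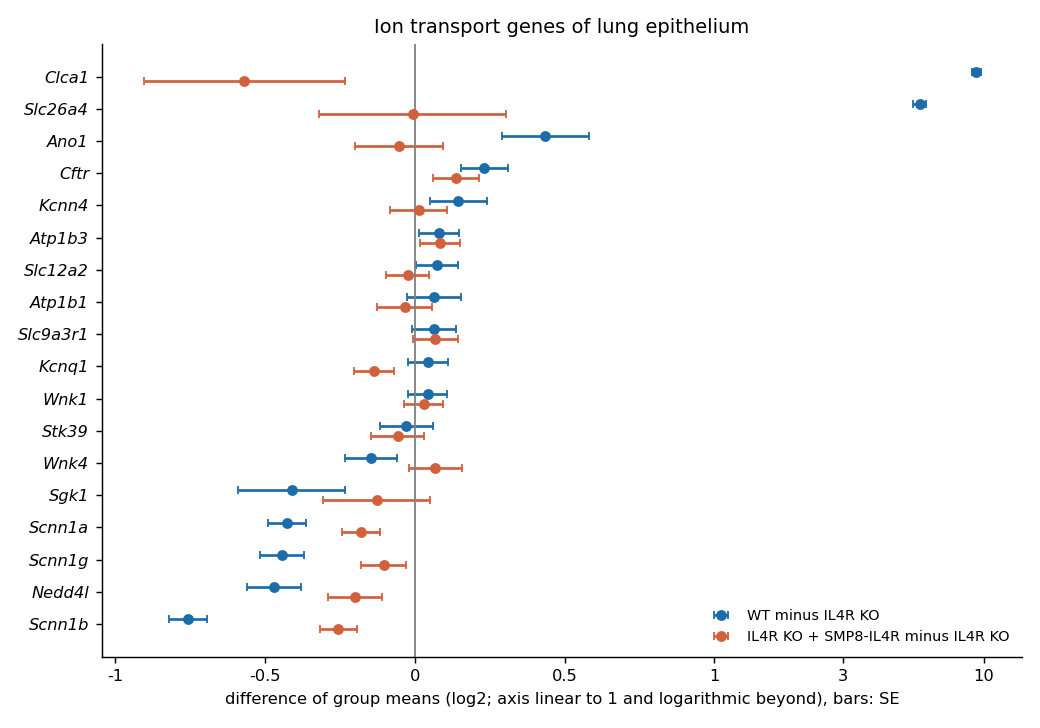
Difference of log2 group means from IL4R KO (horizontal axis, linear to 1 and logarithmic beyond) for the 18 tested ion transport genes (vertical axis), with bars for the SE of the gene fit, for WT and for IL4R KO + SMP8-IL4R. WT points of Clca1 (9.38) and Slc26a4 (5.77) stand far to the right and those of Scnn1b (-0.76), Nedd4l, Scnn1g and Scnn1a to the left, while transgenic points lie between -0.57 and 0.14.

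Glycerol and triglyceride genes, the partners of the aquaglyceroporins, were read from a list of their own. Of 9 tested, 2 fell and 0 rose in WT by limma (5 at an unadjusted p under 0.05), with a median difference of -0.29. Lipe, the hormone-sensitive lipase, fell by 0.67 (adjusted p = 0.00567) and Dgat2, which makes triglyceride, by 0.91 (0.0169). The other probe set of Lipe differed by only -0.0014, and that of Dgat2 by -0.71. With the transgene 0 of 9 passed by limma (4 at an unadjusted p under 0.05), with a median of -0.40. Lipe is itself a member of the adipocyte list, whose mean was highest in IL4R KO as given above. Of the complex that anchors Aqp4 at the membrane through dystrophin and syntrophins, 0 of 6 tested genes passed in WT by limma (4 at an unadjusted p under 0.05), with a median of -0.17 beside the -0.98 of Aqp4, and 0 of 6 passed with the transgene (0 at an unadjusted p under 0.05). Of 4 other family members with a probe set, Mip, Aqp2, Aqp6 and Aqp12, only Aqp12 was tested, and it differed by -0.0042 (adjusted p = 0.983) in WT and by -0.09 (0.658) with the transgene.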

How the data were processed

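The authors deposited log2 values made with RMA (robust multi-array average: background correction, quantile normalization and one summary per probe set), as the submitters' processing notes name it (version: not given in the sources used here). These deposited log2 values ran from 2.63 to 14.8, with array medians of 7.08 to 7.11. RMA compresses low signals, so differences of dim genes may be understated. Arrays have no read depth, and their number, 2 per group, limits the precision. No detection calls were used.

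Samples were grouped, and pools numbered, by their labels. Of 45101 probe sets, 64 controls were left out; 34945 had 1 gene symbol, 932 several and 9160 none in the array annotation. Each gene took its probe set with the highest mean. Genes that exceeded the overall median in 2 or more arrays were fitted in R 4.3.3 with limma 3.58.1, all 6 arrays sharing the spread around 3 group means, 3 residual and 2.86 prior degrees of freedom, and Benjamini-Hochberg adjustment over 11860 genes. The same model without a filter over 45037 probe sets (3.72 prior degrees of freedom) gave values for every member probe set. The fit was tested on simulated data.

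Named were the 8 aquaporins with every probe set, and listed genes that passed between WT or transgenic lungs and IL4R KO. The 3 genes of highest Pearson r per member were also named. Cftr, Ano1, Krt5, Alas2, Slc4a1, Myh1, Tnnt3, Sftpa1, Sftpd, Sftpb, Abca3, Napsa, Aqp12, Mip, Aqp2 and Aqp6 were added with their values known. A member was marked for liver or fat where its 2 highest arrays were those of the hepatocyte or adipocyte list mean. Members and gene lists were chosen with earlier results of these data known. Alternatives were other filters, probe set rules, a robust trend, covariates, a pool number block, centred arrays and left-out arrays. Promoters came from RefSeq (GRCm38.p6); that of Aqp4 is not shown.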

Additional observations from a re-analysis of the deposited data

Results flagged for a closer look

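Aqp5 and Aqp3 stood out because transgenic and WT lungs differed, the direct test of the difference between their 2 responses against the same IL4R KO pools. In Aqp5 transgenic lungs were above WT lungs by 0.4482 (log2, limma adjusted p = 0.0353), in 2 of 2 pools against 2 of 2. In Aqp3 they were below WT lungs by a difference of -0.4883 (limma adjusted p = 0.0222), again with no overlap of pools, at levels near the median of all array values. Aqp3 met the filter only through both WT pools and IL4R KO pool 1, so its being tested depends on the group where it was high. Over all genes without a filter its limma adjusted p was 0.0329. Both calls were lost when any 1 WT or transgenic pool was left out. In the limma probe set fit Aqp5 did not pass (adjusted p = 0.0695), and set 3 of Aqp3 differed by 0.02 (0.947). Set 2 of Aqp4 (0.85, 0.0333) and set 2 of Aqp11 (-1.39, 0.00194) differed by more in that fit.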

How the results depend on the processing

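All fits are limma, and counts are of features past an adjusted p of 0.05. None of the member differences that passed changed direction in any alternative run. Between WT and IL4R KO, 557 genes passed: 300 with only the 4 arrays compared, 0 with the adipocyte covariate (105 at an unadjusted p under 0.05), and 110 to 1512 with 1 array left out (leaving out WT pool 1 gave 110, WT pool 2 120, either transgenic pool 300, IL4R KO pool 1 1512 and IL4R KO pool 2 1196). Among the 5 tested aquaporins 3 passed: 1 with every probe set fitted, with only the 4 arrays, with the pool number as a replicate block and without the 2 liver-rich arrays, 0 with the adipocyte covariate (0 at an unadjusted p under 0.05), and 0 to 4 with 1 array left out (4, with Aqp1, without IL4R KO pool 1, and 0 without either WT pool, where 4 and 3 had an unadjusted p under 0.05). Aqp4 passed in 14 of 17 alternatives (adjusted p 0.0108 to 0.999), Aqp5 in 7 (0.0121 to 0.999), Aqp11 in 6 (0.00116 to 0.999). These alternatives overlap: leaving out either transgenic pool gives the same fit as only the 4 arrays compared, so that outcome counts more than once. Aqp1 passed with a robust trend (0.0318) and without IL4R KO pool 1 (0.0488).

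Between transgenic and IL4R KO lungs, 12 genes passed: 5 without a filter and with the hepatocyte covariate, 7 with the median over probe sets, with every probe set and with centred arrays (chosen after seeing the data), 19 with a robust trend, 0 with only the 4 arrays (974 at an unadjusted p under 0.05) and with the adipocyte covariate (69), and 0 to 176 with 1 array left out (0 without any WT or transgenic pool; leaving out IL4R KO pool 1 gave 21 and pool 2 gave 176). No aquaporin passed in any of them. Between transgenic and WT lungs, 337 genes passed: 910 with only the 4 arrays, 10 with the adipocyte covariate and 77 to 910 with 1 array left out. Among the 5 tested aquaporins 2 passed: 1 with every probe set and with the replicate block, 4 with a robust trend and with only the 4 arrays (Aqp4 and Aqp11 besides Aqp3 and Aqp5), 0 with either covariate or without the liver-rich arrays (4, 2 and 4 at an unadjusted p under 0.05 for the hepatocyte covariate, the adipocyte covariate and the left-out arrays), and 0 to 4 with 1 array left out. Fits that leave out an array assume its lone partner varies like the other groups. Without the liver-rich arrays, WT and IL4R KO keep 1 pool each, so all spread in that fit comes from the transgenic pools. Apart from having fewer arrays, the cause was not tested.

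Labels give pool numbers but no pairing. Deviations of same-numbered pools correlated at -0.51 (WT, IL4R KO), -0.09 (WT, transgenic) and 0.12 (IL4R KO, transgenic), so numbers were not taken as pairs. With the replicate block 482, 10 and 276 genes passed in the 3 comparisons. Without detection calls, signal over background is unknown for the dim members.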
